A study of Mus musculus with 12 samples.

Results

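Transcription regulator genes were examined in mouse bone marrow mesenchymal stem cells (BMSCs), the plastic-adherent stromal cells of marrow with bone, fat and cartilage potential. The genes were taken by annotation and level, less some named genes. They are rows of the deposited table that carry the Gene Ontology term for regulation of DNA-templated transcription. None carries the kinase activity term or the mitochondrion term. A further 23 annotated genes were left out by name (Hox, Klf and Tbx genes, Pparg, Spi1, Sox9 and others). The level had to reach 1 TPM (a count scaled for transcript length and library depth) in 6 or more of the 12 libraries. Of the 658 genes of the table, 31 met the rule, and another 14 fitting the annotation fell below the TPM minimum. The rule itself holds no comparison between the groups, but it was chosen with earlier results of these data known.

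Both groups were wild-type (WT) BMSCs in osteogenic medium, which held dexamethasone at 100 nM, β-glycerophosphate at 10 mM and ascorbic acid at 50 µM. One group of 6 libraries also received α-asarone, spelled α-Asaronel in the labels, a phenylpropanoid of Acorus oils, and the 6 control libraries did not. Its dose and duration and the age of the animals were not given in the sources used here. Labels do not say whether the libraries of a group came from separate cultures or animals, so the p-values speak of the spread among libraries, which may be technical. The series title names the transcription factor gene Pparg and its link to Dmp1 transcription.

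Transcription is set by factors that bind DNA at promoters and enhancers, by the coregulators they recruit, by enzymes that modify or move nucleosomes, and by elongation factors that travel with RNA polymerase. In marrow stromal cells, factors of the MEF2, TEAD, NF-κB and interferon families join lineage factors in setting bone, fat and inflammatory gene programmes. Many such factors are controlled by phosphorylation, nuclear entry or protein stability, which RNA levels do not measure.

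The table held between 843595 and 1224256 estimated counts per library, of which 33242 to 52028 fell on the 31 genes. The 658 genes summed to 5.36% to 5.67% of each library's TPM total, so the table is part of each transcriptome. Of the marker genes of the labelled cell type, the table held 1 of 12 stromal genes and 1 of 9 osteoblast genes. The stromal gene, Col1a1, had 1720 to 2103 TPM in controls and 1208 to 1428 TPM in treated libraries, with no overlap (log2 fold change −0.50, edgeR adjusted p = 1.79e-11). The osteoblast gene, Dlx3, had 1.30 to 2.45 TPM over all libraries. Macrophage and myeloid markers were abundant in both groups, and their summed level (Spi1, Itgb2, Cfp and Clec10a, 4 of 12 listed) was 834 to 923 TPM in controls and 967 to 1123 TPM with α-asarone. The 4 genes differed in direction: Cfp rose from a mean of 332 to 469 TPM and Spi1 from 143 to 163 TPM, Itgb2 fell from 293 to 273 TPM, and Clec10a did not pass. The lymphocyte genes Cd79a, Cd3g, Vpreb3 and Lck (4 of 7) summed to at most 0.253 TPM, with Cd3g and Vpreb3 listed at 0 in every library. The osteoclast gene Acp5 (1 of 6 markers in the table) had 57.9 to 78.4 TPM in controls and 25.1 to 38.4 TPM in treated libraries, and the smooth muscle gene Cnn1 (1 of 4) 21.8 to 30.3 and 6.82 to 9.97 TPM. The adipocyte genes Pparg, Plin4, Lipe and Cd36 (4 of 9) summed to 349 to 406 and 393 to 507 TPM. Most of that sum was Cd36, with means of 308 and 366 TPM. Plin4, Lipe and Cd36 rose, and Pparg did not pass (log2 fold change −0.05, edgeR adjusted p = 0.430). The endothelial genes Vwf, Esam and Icam2 (3 of 6) summed to at most 3.73 TPM. The part of such cell types in the results was not tested. In bulk RNA, fewer cells of a type and less RNA per cell cannot be told apart.

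Of the 31 regulators, 7 differed between the groups, and by little. With α-asarone, Irf9, Tead3, Hbp1 and Sp1 fell and Mef2d, Relb and Zfp959 rose, and each changed by 1.05-fold to 1.22-fold. The other 24 regulators did not pass the test. The 7 genes are 22.6% of the 31, and the background is that 30.3% of all 512 tested genes passed (66 higher, 12.9%, and 89 lower, 17.4%). The 512 include genes left out of the 31 by name, and more of those passed than did not. The difference between these shares was not tested. A gene passed at a Benjamini-Hochberg adjusted p under 0.05 over the 512 genes, in edgeR's quasi-likelihood test of the rounded estimated counts. At an unadjusted p under 0.05 were 10 of the 31 (32.3%) and 39.8% of all tested genes. With library totals of the table in place of TMM factors (edgeR's correction for composition), 11 regulators passed (35.5%), 8 higher and 3 lower, beside 36.9% of all tested genes (24.8% higher and 12.1% lower). Rises then made up 72.7% of the regulators' calls and 67.2% of all genes' calls, against 42.9% and 42.6% with TMM.

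The median log2 fold change (α-asarone minus control) of the 31 genes was 0.00, as it was for all 512 genes. The TMM factors were estimated on these same 512 genes, so a median near 0 over them depends on that scaling. With table totals the median of the 31 was 0.047, and that of all genes shifted by 0.043. The median absolute log2 fold change of the 31 was 0.07, against 0.08 over all tested genes. None of the 31 reached a 1.25-fold change, a size that 48 of the 512 genes (9.38%) reached. Genes left out by name stayed among the 512 where they met the TPM minimum. Those that exceeded that size were Meox1 (log2 fold change 1.18), Fosb (0.73), Nr1h3 (0.50), Tbx4 (0.40), Peg3 (−0.60), Hoxc13 (−0.43), Hoxc6 (−0.41) and Hoxc11 (−0.38). More did not, such as Klf4 (−0.31), Pparg (−0.05) and Axin2 (0.04). The 31 thus do not stand for all annotated regulators. For 28 of the 31, the 95% interval of the difference lay wholly within a 1.25-fold change in either direction (90.3%, against 77.1% of all tested genes). Of those that did not pass, 23 of 24 had such an interval, and the exception was Irx2.

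**Figure D1:**
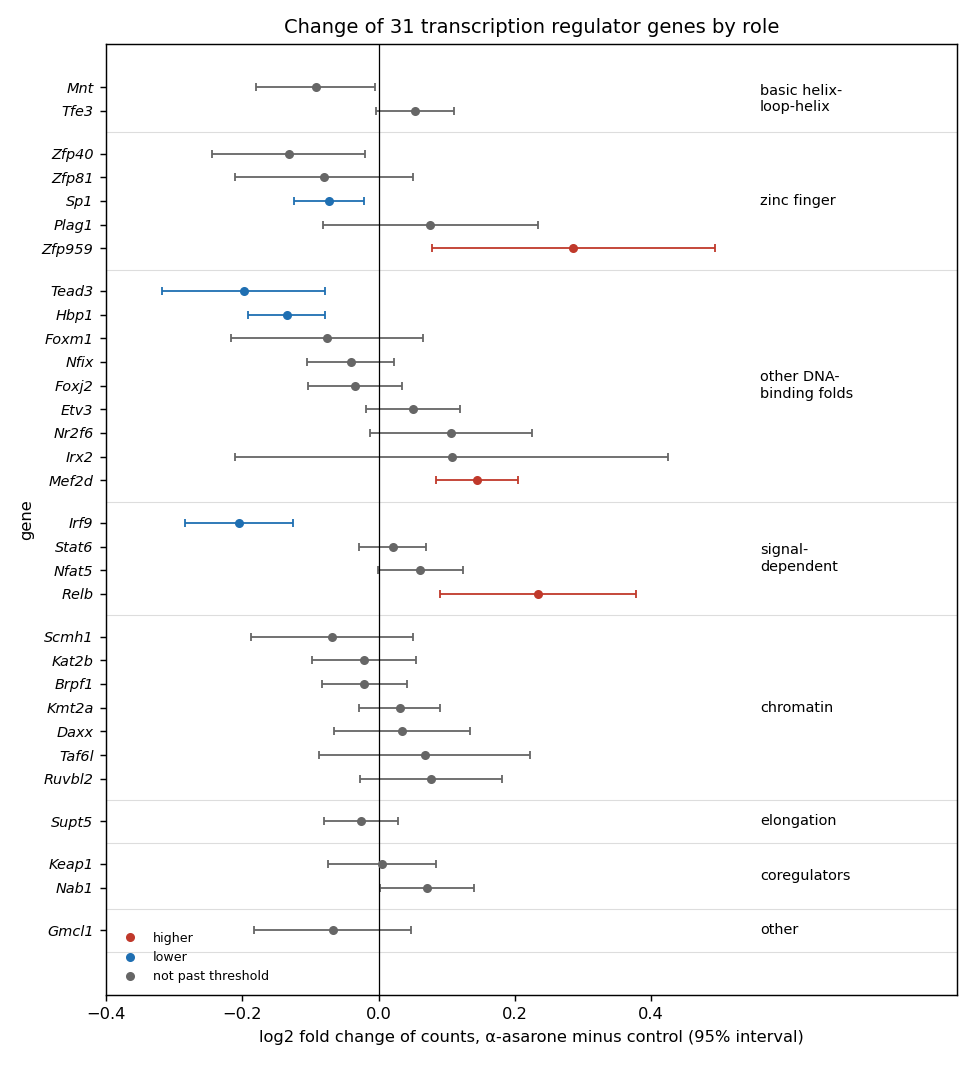
Log2 fold change of estimated counts (α-asarone minus control, horizontal axis) with its 95% confidence interval for the 31 regulator genes, grouped by role. Blue genes were lower, red genes higher and grey genes did not pass, with the points between −0.21 (Irf9) and 0.29 (Zfp959).

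**Figure D2:**
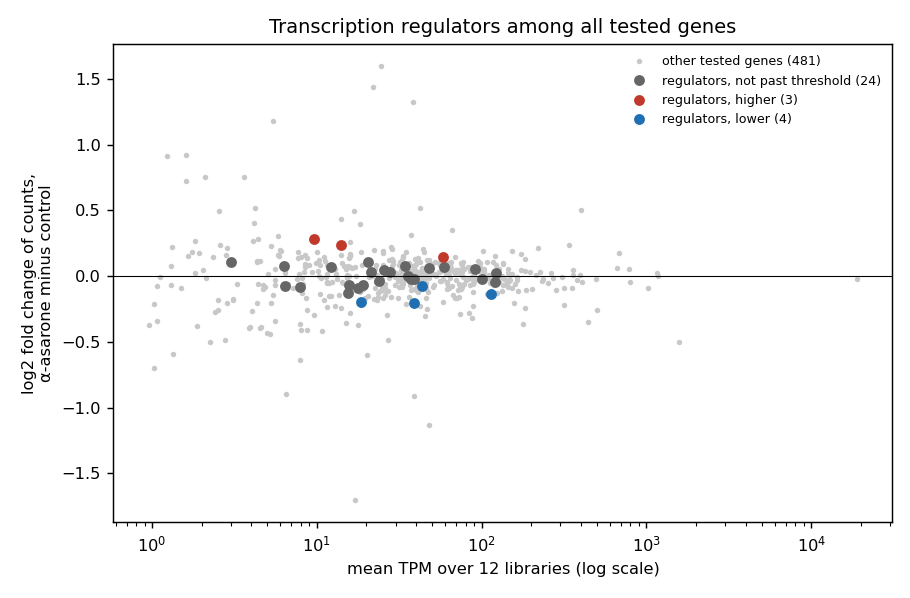
Log2 fold change of counts (vertical axis) against mean TPM over 12 libraries (horizontal axis, log scale) for the 512 tested genes, with the 31 regulators as large points. The regulators lie between −0.21 and 0.29, while all tested genes span −1.71 to 1.60.

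The genes differ in what they encode, and the deposited table assigns a transcription factor family to 20 of the 31. All 7 genes that passed were among these 20 (35%, beside the 30.3% of all tested genes), whose median absolute log2 fold change was 0.09, against 0.08 over all tested genes. With table totals 10 of the 20 passed. None of the 11 without a family (chromatin enzymes, coregulators, an elongation factor and Gmcl1) passed, and 1 of them, Nab1, was at an unadjusted p under 0.05. DESeq2 and limma also called 0 of the 11, table totals called 1, and their median absolute log2 fold change was 0.03. The difference between the groups of 20 and 11 was not tested.

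Among the factors that answer cytokine and interferon signals, Irf9 fell and Relb rose, while Stat6 and Nfat5 did not pass. Irf9 (ENSMUSG00000002325, chromosome 14, 55603571 to 55610030, plus strand, GRCm38) encodes a DNA-binding factor of the interferon response. Its TPM ran from 38.2 to 43.8 in controls (median 42.5) and from 35.0 to 39.4 with α-asarone (median 36.1). The groups met only at the lowest control and the highest α-asarone library. Its mean of 41.8 ± 2.09 TPM fell to 36.4 ± 1.59 TPM (SD, n = 6 each), a log2 fold change of −0.21 ± 0.04 (SE, adjusted p = 1.41e-04). Irf9 overlaps Rnf31 on the same strand, so reads of that region are less certain, although all its counts were whole.

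Relb (ENSMUSG00000002983, chromosome 7, 19606217 to 19629438, minus strand) encodes the NF-κB subunit of the non-canonical pathway. Control libraries held 11.9 to 14.5 TPM (median 12.9), and α-asarone libraries 13.8 to 16.2 TPM (median 15.2). The highest control lay above the lowest treated libraries, and the other controls lay below all of them. The mean of 12.9 ± 0.880 TPM rose to 15.0 ± 0.943 TPM (log2 fold change 0.23 ± 0.07, adjusted p = 0.011), on a mean of 247 counts. Leukocytes also express Relb, and of the myeloid markers given above Cfp and Spi1 were higher in treated libraries and Itgb2 lower; their part in the values of Relb was not tested.

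Stat6, the mediator of interleukin-4 and interleukin-13 signals, was the most abundant of the 31 genes. It held 119 to 127 TPM in controls and 117 to 126 TPM with α-asarone, and the interval of the difference ran from −1.98% to 4.96%. Stat6 overlaps Nab2 on the opposite strand. Nfat5, the factor of the response to osmotic stress, gave different answers in TPM and in counts and is described below.

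From a list of 34 interferon-stimulated genes, 4 were tested, and 2 were lower and none higher with α-asarone (median log2 fold change −0.19, against 0.00 over all tested genes, of which 17.4% were lower). Those lower were Irf9 itself and Oas1c, of the oligoadenylate synthetase family. Oas1c had a control mean of 3.09 ± 0.620 TPM and a treated mean of 2.42 ± 0.808 TPM (log2 fold change −0.48 ± 0.14, adjusted p = 0.0101), and it did not pass with limma on log2(TPM + 1) (adjusted p = 0.193). Mx1, an antiviral GTPase gene, had 2.82 ± 0.389 and 2.18 ± 0.691 TPM and did not pass (adjusted p = 0.501). Trim25, a ubiquitin ligase gene, had 31.8 ± 1.61 and 33.5 ± 2.87 TPM and did not pass either.

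The largest class was DNA-binding factors of homeobox, forkhead, nuclear receptor, TEA, MADS and other folds. Of 9 genes, Tead3 and Hbp1 fell, Mef2d rose, and 6 did not pass. Tead3 (ENSMUSG00000002249, chromosome 17, 28331671 to 28350817, minus strand) encodes a TEA domain factor that binds the Hippo pathway coactivators YAP and TAZ. Its TPM was 17.8 to 21.6 in controls (median 20.2) and 15.6 to 18.5 with α-asarone (median 17.8). The lowest 2 controls lay within the treated range and the other 4 above it. Its mean of 19.9 ± 1.56 TPM fell to 17.4 ± 1.33 TPM (log2 fold change −0.20 ± 0.06, adjusted p = 0.00987).

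Hbp1 (ENSMUSG00000002996, chromosome 12, 31926254 to 31950535, minus strand) encodes a high mobility group box repressor of cell cycle and Wnt target genes. It had 109 to 124 TPM in controls (median 121) and 105 to 112 TPM with α-asarone (median 109). A single control, replicate 3, lay within the treated range. Its mean of 119 ± 5.68 TPM fell to 109 ± 2.42 TPM (log2 fold change −0.14 ± 0.03, adjusted p = 4.01e-04). Its counts were not whole in any of the 12 libraries, and it overlaps Cog5 on the opposite strand. Whether the overlap bears on those counts was not tested.

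Mef2d (ENSMUSG00000001419, chromosome 3, 88142372 to 88172086, plus strand) encodes a MADS-box factor of muscle, neuron and immune cell differentiation. Its TPM was 51.1 to 58.8 in controls (median 54.4) and 59.1 to 64.5 with α-asarone (median 60.4), with no overlap. Lack of overlap in TPM was seen for 3 of the 31 regulators, Mef2d, Sp1 and Nfat5 (9.68%), and for 14.3% of all tested genes. The mean of Mef2d was 54.9 ± 2.73 TPM and rose to 61.3 ± 2.41 TPM (log2 fold change 0.15 ± 0.03, adjusted p = 3.46e-04). Mef2d overlaps 1700113A16Rik on the opposite strand, and its counts were whole in every library.

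The 6 others of this class had log2 fold changes from −0.08 to 0.11. Nfix, a nuclear factor I gene and the second most abundant regulator, held 122 ± 5.86 TPM in control and 119 ± 6.54 TPM in treated libraries, with an interval from −6.98% to 1.58%. Foxm1, the forkhead factor of mitotic genes, held 6.49 ± 0.437 and 6.28 ± 0.322 TPM. Nr2f6, an orphan nuclear receptor gene, had 19.7 ± 1.53 and 21.2 ± 1.14 TPM, with an interval from −0.889% to 16.9% and counts that were not whole in any library. Etv3, a repressor of the ETS family, had 24.8 ± 1.02 and 25.9 ± 0.843 TPM. Foxj2, another forkhead gene, had 24.0 ± 1.19 and 23.5 ± 0.818 TPM. The Iroquois homeobox gene Irx2 was the least abundant regulator, at up to 5.20 TPM and a mean of 46.5 counts, and its interval, from −13.6% to 34.3%, was the widest of the 31.

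Foxm1 was also read beside a list of 32 mitotic and replication genes, of which 10 were tested, Foxm1 included (median log2 fold change −0.02). None passed with edgeR or DESeq2, beside 30.3% of all tested genes with edgeR and 160 of 512 with DESeq2. The cyclin gene Ccne1 alone had an unadjusted edgeR p under 0.05 (1 of 10, beside 39.8% of all tested genes). Ccne1 passed with limma (adjusted p = 0.0238) and with table totals (adjusted p = 0.0439). Ube2c, a ubiquitin-conjugating enzyme gene of mitotic exit, had 15.7 ± 2.50 TPM in control and 15.5 ± 2.05 TPM in treated libraries. Ccne1 went from a mean of 8.92 TPM to 11.2 TPM, on a range of 7.54 to 13.2 TPM over all libraries (edgeR adjusted p = 0.115).

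Of the 5 zinc finger genes, Sp1 fell, Zfp959 rose and Zfp40, Zfp81 and Plag1 did not pass. Sp1 (ENSMUSG00000001280, chromosome 15, 102406143 to 102436404, plus strand) encodes a factor that binds GC boxes in many promoters. Its TPM was 43.9 to 49.7 in controls (median 44.4) and 39.9 to 42.4 with α-asarone (median 41.6), with no overlap. The mean fell from 45.2 ± 2.26 to 41.5 ± 0.834 TPM. In counts the change was smaller, a log2 fold change of −0.07 ± 0.03 (adjusted p = 0.028) against −0.13 for the ratio of mean TPM. Scaled to a common library size, the counts of the groups overlapped. Control replicate 2, with the highest TPM, had 2756, and the α-asarone libraries had 2722 to 2823. The call was lost with table totals (log2 fold change −0.03, adjusted p = 0.41), without the TPM filter (adjusted p = 0.0579), and without control replicate 1, 4, 5 or 6 or α-asarone replicate 4 (adjusted p from 0.054 to 0.0726).

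Zfp959 (ENSMUSG00000003198, chromosome 17, 55892093 to 55898928, plus strand), a gene of the C2H2 zinc finger class, had the largest point estimate and a wide error. Its TPM was 6.49 to 11.1 in controls (median 8.85) and 8.50 to 13.6 with α-asarone (median 10.0), and the groups overlapped over most of their range. The log2 fold change was 0.29 ± 0.10 (adjusted p = 0.0319) on a mean of 149 counts, 3 libraries of which were not whole. The call was lost without α-asarone replicate 3 (log2 fold change 0.20, adjusted p = 0.121), α-asarone replicate 4 (adjusted p = 0.0502) or control replicate 2, 5 or 6 (adjusted p from 0.0556 to 0.0874). It was also lost with limma on log2(TPM + 1) (adjusted p = 0.188).

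Zfp959, Zfp40 and Zfp81 all lie on chromosome 17, which holds 6 of the 31 regulators, and of these 3 zinc finger genes only Zfp959 passed. Zfp40 had 16.1 ± 1.34 TPM in control and 14.9 ± 0.791 TPM in treated libraries (log2 fold change −0.13 ± 0.05, adjusted p = 0.0694). Without control replicate 2 or 6, or α-asarone replicate 2, it passed (adjusted p = 0.0489, 0.0409 and 0.0451). Zfp81 had 8.32 ± 1.18 and 7.46 ± 0.786 TPM (log2 fold change −0.08), and Plag1, a zinc finger gene that activates Igf2, 6.57 ± 0.771 and 6.07 ± 0.975 TPM.

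**Figure D3:**
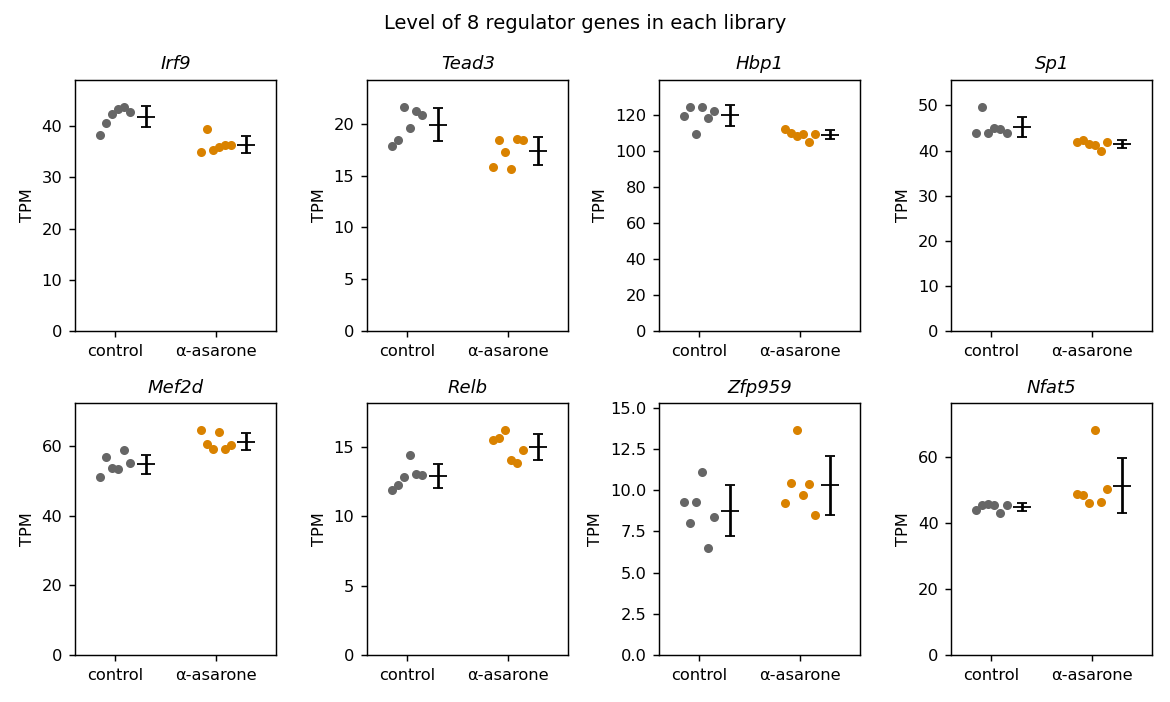
TPM (vertical axis, from 0) of the 7 regulators that passed and of Nfat5 in each of 6 control (grey) and 6 α-asarone (orange) libraries, with the mean and SD in black. Mef2d, Sp1 and Nfat5 show no overlap between the groups, and Zfp959 the broadest overlap among genes that passed.

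Neither basic helix-loop-helix factor passed. Tfe3, which drives lysosome and autophagy genes, held 86.2 to 94.6 TPM in controls and 78.1 to 104 TPM with α-asarone, so the treated libraries spread wider on both sides. Its log2 fold change was 0.05 ± 0.03 (adjusted p = 0.158), and it passed with table totals (adjusted p = 0.0156). Mnt, a repressor that pairs with Max and opposes Myc, had 18.3 ± 0.714 and 17.2 ± 1.04 TPM (log2 fold change −0.09 ± 0.04, adjusted p = 0.104). From a list of 42 lysosome genes with the E-box bound by Tfe3 and its relatives, 4 were tested (median log2 fold change 0.04). With edgeR, 2 were higher and 1 lower, beside 12.9% and 17.4% of all tested genes. Acp2, a lysosomal acid phosphatase gene, rose from 93.8 ± 4.99 to 102 ± 6.22 TPM and Naglu, a heparan sulphate degradation gene, from 53.4 ± 2.62 to 57.2 ± 1.62 TPM. Acp5, also an osteoclast marker, fell from 66.6 ± 7.57 to 29.8 ± 5.07 TPM, and Gm2a, a ganglioside activator gene, did not pass. With limma only 1 of the 4 passed, beside 22.9% of all tested genes. That gene was Acp5 (limma adjusted p = 7.51e-08), while Acp2 (0.0594) and Naglu (0.0601) did not pass.

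None of the 7 chromatin regulators passed, with 0 at an unadjusted p under 0.05 and 0 called by DESeq2, limma or table totals. Of all tested genes, 30.3% passed with edgeR and 39.8% were at an unadjusted p under 0.05. Kat2b, a histone acetyltransferase gene, had 37.6 ± 2.51 TPM in control and 36.7 ± 2.03 TPM in treated libraries. Brpf1, the scaffold of another acetyltransferase complex, had 39.3 ± 1.64 and 38.5 ± 0.780 TPM, with an interval from −5.63% to 2.97%. Kmt2a, a histone methyltransferase that maintains Hox gene expression, had 20.9 ± 1.17 and 21.9 ± 1.71 TPM, with an interval from −1.95% to 6.46%. Scmh1, a Polycomb group gene, had 17.7 to 21.9 TPM in controls and 16.3 to 21.1 TPM in treated libraries. Taf6l, a subunit gene of a coactivator acetyltransferase complex, had 9.92 to 13.5 and 11.4 to 14.1 TPM, and Ruvbl2, an ATPase gene of remodelling complexes, had 33.2 ± 1.82 and 35.0 ± 1.62 TPM. Daxx, a histone chaperone gene, had 27.2 ± 5.92 and 28.7 ± 3.79 TPM.

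The elongation factor gene Supt5, whose product holds RNA polymerase II near promoters and then travels with it, had 101 ± 3.01 TPM in control and 99.3 ± 3.44 TPM in treated libraries, with an interval from −5.40% to 2.04%. The coregulators gave 0 calls of 2. Nab1, a corepressor of the early growth response factors, had 57.6 ± 2.15 and 60.1 ± 3.42 TPM (log2 fold change 0.07 ± 0.03, adjusted p = 0.119) and passed with table totals (adjusted p = 0.013). Keap1, the adaptor that targets the antioxidant factor Nfe2l2 for degradation, had 35.8 ± 2.46 and 35.4 ± 0.917 TPM, with an interval from −5.04% to 5.97%. Gmcl1, a BTB domain gene in none of the classes, had 16.0 ± 0.871 and 15.2 ± 1.10 TPM.

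The TPM and the counts of a gene need not move together, because TPM divides the count by an effective length that can differ between libraries when reads are assigned to different transcripts. The ratio of count to TPM, set relative to the gene's median and the library's median, was compared across the 12 libraries. The highest ratio was over 1.25 times the lowest for 8 of the 31 regulators (25.8%) and for 56 of the 512 tested genes (10.9%), and the difference in shares was not tested. The 8 genes were Irx2, Nfat5, Daxx, Kmt2a, Plag1, Zfp81, Tfe3 and Zfp959.

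Nfat5 (ENSMUSG00000003847, chromosome 8, 107293470 to 107379517, plus strand) showed the widest such spread after Irx2, 1.56 times. Its TPM was 43.0 to 45.9 in controls (median 45.4) and 46.0 to 68.2 with α-asarone (median 48.6), so the groups did not overlap. The value of 68.2 came from α-asarone replicate 4, whose ratio of count to TPM was 0.65, while the other 11 libraries had 0.905 to 1.02. In counts, which were on average 4564 per library and whole in all of them, the log2 fold change was 0.06 ± 0.03 (adjusted p = 0.133), against 0.19 for the ratio of mean TPM. With the ratio entered as an offset in edgeR, a setting chosen after seeing the data, the log2 fold change was 0.19 (adjusted p = 0.0429). Nfat5 also passed without α-asarone replicate 5 (adjusted p = 0.0345) and with table totals (adjusted p = 0.0106).

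In control replicate 6, Daxx was at 38.9 TPM, and the remaining controls were at 22.9 to 26.5 TPM. Its ratio of count to TPM in that library was 0.742 against 1.03 to 1.11 in the other controls. Scaled to a common library size, the counts of Daxx in that library were 585, and 518 to 569 in the other controls. For Plag1 the signs differed, with a log2 fold change of 0.08 ± 0.08 in counts and −0.12 for the ratio of mean TPM, and neither passed. With the effective-length offset Zfp959 no longer passed (adjusted p = 0.192), and Sp1 had a log2 fold change of −0.12 (adjusted p = 0.003).

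**Figure D4:**
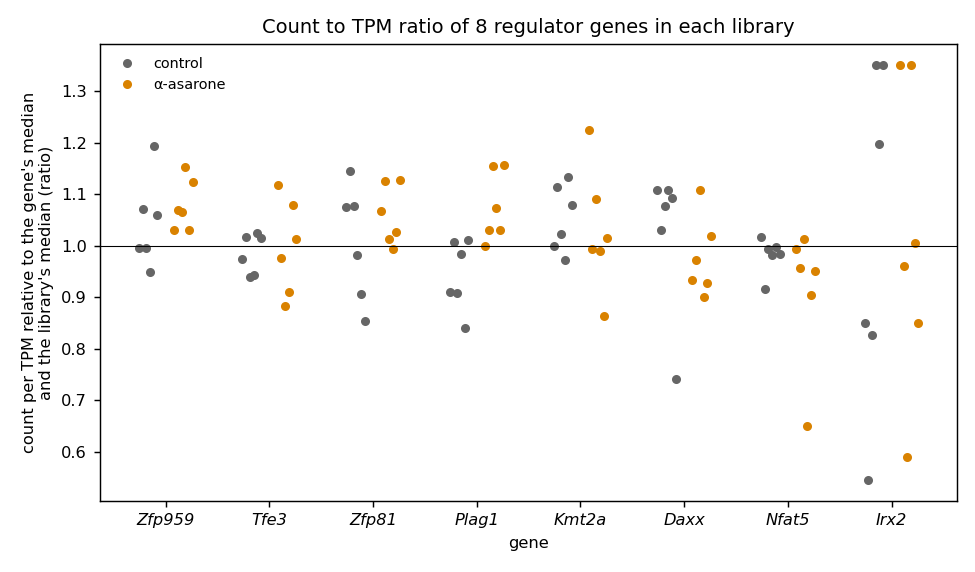
Ratio of estimated count to TPM, relative to the gene's and the library's median (vertical axis), for the 8 regulators whose highest ratio exceeded the lowest by over 1.25 times, in 6 control (grey) and 6 α-asarone (orange) libraries. Nfat5 has a single low value, 0.65, in an α-asarone library, and Daxx a single low value, 0.742, in a control.

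In all, 26 of the 31 regulators had whole counts in every library. The 5 others were Hbp1, Nr2f6, Ruvbl2, Nfix and Zfp959. Overlap with another gene on the opposite strand was annotated for 13 regulators, and with a protein-coding gene on the same strand for Irf9 and Foxm1. Strand handling was not given in the sources used here, so reads of opposite-strand partners cannot be told apart.

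Promoter sequences of 3 regulators that moved, and that have 1 start in the RefSeq promoter table (GRCm38.p6), are shown because Sp1 itself binds GC boxes and because the genes moved in both directions. Each run is the 250 bases before the RefSeq start, 5′ to 3′ on the gene's strand, with capitals marking GC boxes (GGGCGG) and CCAAT boxes (CCAAT) on either strand.
Sp1: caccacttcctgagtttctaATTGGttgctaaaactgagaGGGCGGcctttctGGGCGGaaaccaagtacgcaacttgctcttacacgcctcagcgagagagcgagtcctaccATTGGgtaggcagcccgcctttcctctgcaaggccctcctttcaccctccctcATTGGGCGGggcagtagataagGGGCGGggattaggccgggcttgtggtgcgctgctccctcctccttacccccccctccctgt
Mef2d: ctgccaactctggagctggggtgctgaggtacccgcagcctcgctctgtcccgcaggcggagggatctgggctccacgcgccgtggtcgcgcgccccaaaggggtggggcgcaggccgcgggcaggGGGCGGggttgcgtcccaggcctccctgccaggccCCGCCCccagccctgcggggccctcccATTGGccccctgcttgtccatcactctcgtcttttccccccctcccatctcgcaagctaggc
Hbp1: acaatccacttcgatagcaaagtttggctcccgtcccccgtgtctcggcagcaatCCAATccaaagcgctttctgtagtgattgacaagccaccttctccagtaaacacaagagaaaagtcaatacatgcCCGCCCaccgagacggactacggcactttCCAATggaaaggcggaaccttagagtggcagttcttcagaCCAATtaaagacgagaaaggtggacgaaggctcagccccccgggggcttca
The Sp1 window (chr15:102406066-102406315, plus strand) holds 4 GC boxes and 3 CCAAT boxes, with 2 bases shared between matches. The Mef2d window (chr3:88142122-88142371, plus strand) holds 2 GC boxes and 1 CCAAT box, and the Hbp1 window (chr12:31950246-31950495, minus strand) holds 1 GC box and 3 CCAAT boxes. The RefSeq start lies downstream of the GENCODE gene start by 173 bases for Sp1 and 290 for Hbp1, and by 0 for Mef2d. The Hbp1 window thus lies wholly inside the GENCODE gene, as does most of the Sp1 window. The Mef2d window lies before its gene.

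Promoters of 27 of the 31 regulators were in that table, as windows from 250 bases before to 50 after each start, searched on both strands. A GC box was found for 24 of the 27 (88.9%), for 72.2% of the 418 tested genes with a window and for 38.2% of all 27025 genes of the table. A CCAAT box was found for 12 (44.4%), against 46.4% of tested genes and 41.1% of all. The E-box CACGTG, bound by Tfe3 and Mnt among others, was found for 3, Etv3, Mnt and Taf6l (11.1%, against 13.2% of tested genes and 8.09% of all). The ETS core CCGGAA was found for 6 (22.2%, against 30.4% and 16.7%). Windows of 0 of the 27 held the letters TATAAA (6.22% of tested genes, 15.7% of all), the direct repeat bound by PPARG and its partner (AGGTCA, any base, AGGTCA, in 0% and 0.0481%) or the interferon element core (GAAA, any 2 bases, GAAA, in 3.59% and 3.99%). These matches describe letters in a window and show no binding.

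Few genes lay near the TPM minimum of the rule. The least abundant regulators inside it were Irx2, with a mean of 3.03 TPM, and Plag1, with 6.32 TPM. Just outside were Pax9, a paired box gene with a mean of 0.988 TPM and at least 1 TPM in 4 libraries, Hlf at 0.737 TPM, Scml2 at 0.499 TPM and Lhx2 at 0.477 TPM. Of the other 10 genes outside, 6 were listed at 0 in every library (Myf5, Zfy2, Nkx2-1, Aire, Mnx1 and Shh), and Npas1, Evx2, Elf3 and Foxn1 reached at most 0.296 TPM.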

How the data were processed

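The data are poly(A) RNA-seq of 12 libraries, 6 per group. The authors deposited, per the file headers, a TPM value and an estimated count for each gene and library. The submitters' processing notes name GRCm38 and mm10, and an aligner or quantifier was not given in the sources used here. Analysed were 658 genes.

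Estimated counts were rounded and tested with edgeR 4.0.16 in R 4.3.3 (glmQLFit and glmQLFTest, TMM, no covariate) over the 512 genes that reached 1 TPM in 6 or more libraries, with Benjamini-Hochberg adjustment over all of them. The test was checked on simulated counts. Standard errors are from the same fit. Limma 3.58.1 and DESeq2 1.42.0 were alternatives. Positions are from GENCODE release M21, which matched all 658 identifiers. Each library entered as its own replicate. Chi-square per degree of freedom was 2.24 to 11.2 over 30 replicate pairs, which cannot show whether libraries came from separate cultures or animals.

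The members and lists were chosen with earlier results of these data known. The naming rule took called regulators whose mean reached 2 TPM in 1 group, up to 12 per direction, and for each role the largest call and the highest TPM. Other regulators are named to account for all 31. Zfp959, Zfp81, Etv3, Nfat5, Taf6l, Ruvbl2 and Keap1 were placed in roles, and the interferon element core was added to the motifs, after the table was seen.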

Additional observations from a re-analysis of the deposited data

Results flagged for a closer look

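In 66 groups of 6 values (the TPM of each regulator, their summed TPM and the total count, per group), the gap between an extreme value and the next was set against Dixon's 95% critical value. Values stood apart in 9 groups, where chance alone gives about 3.3. Nfat5 had 68.2 TPM in α-asarone replicate 4, while its group was otherwise at 46.0 to 50.2 TPM, and Daxx had 38.9 TPM in control replicate 6. Sp1 had 49.7 TPM in control replicate 2, and the remaining controls had 43.9 to 45.0 TPM. Its ratio of count to TPM in that library was 0.833, against 0.964 to 1.01 in the other controls. Scaled to a common library size, its count there was 2756, and 2894 to 3004 in the other controls. That library also had the lowest total estimated count, 843595, against 1068547 to 1173845 in the other controls. Without control replicate 2 the log2 fold change of Sp1 was −0.09 (adjusted p = 0.00565).

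Also apart were the values of Stat6 at 127 TPM and Foxj2 at 26.3 TPM, both in control replicate 5, and of Foxm1 at 5.64 TPM in control replicate 6. Irf9 had 39.4 TPM in α-asarone replicate 2, and without that library its log2 fold change was −0.22. Nr2f6 had 23.4 TPM in α-asarone replicate 6, while its group was otherwise at 20.4 to 21.1 TPM.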

How the results depend on the processing

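Irf9, Tead3, Hbp1, Mef2d and Relb kept their direction and their call under all 21 alternatives run for them. Over the 31 regulators, 624 of 650 alternative values kept the call or its absence, 15 lost a call (Sp1 and Zfp959), 11 gained one (6 genes) and none of a called gene changed sign. With table totals 11 regulators passed, 8 of them higher, against 7 and 3, beside 189 of all genes, 127 of them higher, against 155 and 66, and their median log2 fold change was 0.047 while the median of all genes shifted by 0.043. The regulators' median was −0.026 with limma on log2(TPM + 1), −0.026 with log2(TPM + 0.1) and −0.024 with the effective-length offset, against 0.005. The median of all genes under these settings is not given here, so a shift of the whole table cannot be told apart, and the cause was not tested. With each library left out, 5 to 8 regulators passed, 2 to 4 higher and 3 to 5 lower, with medians of −0.010 to 0.024, and 138 to 152 genes passed in all against 155. Same-numbered libraries had correlations of −0.0584 to 0.145 and their own number gave the best correlation for 0 of 6, so the numbers were not taken to pair the samples. With the replicate block 8 regulators and 168 genes passed, Nfat5 being the addition (adjusted p = 0.0491). Depth limits the rarer regulators: the SE was 0.16 for Irx2, with a mean count of 46.5, and 0.02 for Stat6, with 4012.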

Other observations

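Other genes of the table have a transcription factor family in the deposited annotation, or the transcription term together with a kinase or mitochondrial term, and so lie outside the 31. Of 14 such tested genes, 2 were higher and 1 lower with α-asarone, beside 12.9% and 17.4% of all tested genes. The 14 do not include the genes left out by name. Of those that were tested, more passed than did not. Passing were Meox1 (edgeR adjusted p = 1.32e-09), Peg3, Nr1h3, Rarg, Klf4, Klf6, Spi1, Tgfb1, Sox9, Fosb, Jup, Il16 and Flii. Hoxa10, Hoxc6, Hoxc11, Hoxc13, Tbx2 and Tbx4 also passed. Pparg (edgeR adjusted p = 0.430), Ppard, Axin2, Tcf7, Dlx3, Zim1, Hoxa4 and Hoxc8 did not. Zfp512b, a zinc finger gene, had 23.3 ± 1.03 TPM in control and 27.4 ± 2.90 TPM in treated libraries (SD, n = 6 each, log2 fold change 0.19 ± 0.04, edgeR adjusted p = 4.48e-04). Acvr1b, an activin type I receptor gene, rose from 17.3 ± 0.745 to 19.6 ± 0.975 TPM with no overlap between the groups, and Acvrl1, a receptor gene of the same family, fell from 23.5 ± 2.32 to 20.9 ± 0.951 TPM (edgeR adjusted p = 0.0195). Stat3 had 142 ± 3.08 and 137 ± 4.84 TPM (edgeR adjusted p = 0.0733), and Irf3, a first-line interferon gene activator, had 40.3 ± 2.15 and 42.7 ± 1.89 TPM (edgeR adjusted p = 0.612). Mxd1, which like Mnt pairs with Max, had 7.36 ± 0.596 and 6.87 ± 0.712 TPM and did not pass. Tfam, which binds mitochondrial DNA, and Tcf25, Tulp3, Glmp, Zfp385a, Zfp276, Mkrn2 and Tchp did not pass either.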
